A study of Mus musculus with 6 samples.

Results

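The Cyp2a genes of mouse liver, Cyp2a4, Cyp2a5, Cyp2a12 and Cyp2a22, were followed in livers of mice dosed with polystyrene microplastics (PS-MP) and of mice given water. They were chosen by matching these 4 symbols to the Ensembl identifiers of the files through the mouse annotation GENCODE M21, which gave 4 of 55536 genes. The family was picked because Cyp2a5 had already been seen to differ between the groups. All values of the family between PS-MP and water are therefore descriptions, with no test. RNA sequencing of liver gave 6 libraries, 3 from PS-MP mice and 3 from water mice. All mice were males of C57BL/6, an inbred laboratory strain, and were 6 weeks old when dosing began. The PS-MP mice received particles of polystyrene by mouth at 0.4 mg per day, and the water mice received water, both on 2 occasions a week for 8 weeks. The labels give no particle size, hour of collection, feeding state or batch. No label states that each library is a different mouse. Errors thus describe how far the libraries of a group spread, which may be technical variation. The p-values set the difference between the groups against that spread, moderated over all tested genes.

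Cyp2a enzymes are cytochrome P450 monooxygenases of the endoplasmic reticulum. They hold a haem group and take electrons from cytochrome P450 reductase to oxidise small hydrophobic substrates. Cyp2a5 is the coumarin 7-hydroxylase of mouse liver and also oxidises nicotine and bilirubin. Cyp2a4 hydroxylates steroids at the 15-alpha position and is known for higher levels in female than in male liver. Cyp2a12 hydroxylates testosterone at the 7-alpha position, and no role is given here for Cyp2a22.

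All 4 genes lie on chromosome 7 within 730 kb (GENCODE M21 on GRCm38). Cyp2a4 (ENSMUSG00000074254) spans chr7:26307169-26315088 and Cyp2a5 (ENSMUSG00000005547) spans chr7:26835305-26843548, both on the plus strand and 520 kb apart. Cyp2a22 (ENSMUSG00000091867) lies at chr7:26931631-26939384 on the minus strand, and Cyp2a12 (ENSMUSG00000060407) at chr7:27029081-27037375 on the plus strand. Each gene has a coding transcript of 9 exons. The family falls into 2 pairs of close copies. The coding sequences of Cyp2a4 and Cyp2a5 were 98.5% identical over 1485 bases, with 23 substitutions in 23 codons, of which 11 were synonymous and 12 changed the amino acid. Those of Cyp2a12 and Cyp2a22 were 97.0% identical over 1479 bases with 45 substitutions, and identity between the pairs was 74.9% to 76.1%.

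The stretch below, coding bases 601 to 660 counted from the A of the start codon (codons 201 to 220), is shown because it holds codon 209, the residue known to set coumarin against steroid hydroxylation between these enzymes. Capitals mark the 4 bases that differ, and the substitution in codon 209 was T625C (the base of Cyp2a5, the position, then the base of Cyp2a4).
Cyp2a5: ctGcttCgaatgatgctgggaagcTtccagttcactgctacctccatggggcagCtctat
Cyp2a4: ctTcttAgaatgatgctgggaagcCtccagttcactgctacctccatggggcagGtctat
The sequences come from the GENCODE M21 transcripts. Copies this alike limit the assignment of reads. Of all 50-base words in the annotated transcripts of each gene, 61.2% for Cyp2a4 and 63.0% for Cyp2a5 occurred in no other gene, and with 150-base words these shares were 95.8% and 95.4%. For Cyp2a12 and Cyp2a22, 79.9% and 79.8% of 50-base words were unique. The split of reads within a pair is uncertain, since the sources used here give neither the read length nor the treatment of reads with several matches. The antisense gene Gm42375 overlaps Cyp2a4 and had 0 reads, and the pseudogene Cyp2a21-ps overlaps Cyp2a22 and had 8 reads over the 6 libraries.

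Promoters are shown because Cyp2a4 and Cyp2a5 lay on the same side in PS-MP livers while Cyp2a12 and Cyp2a22 did not. Each window runs from 250 bases before the RefSeq start to 50 bases after it (GRCm38.p6), and all 4 genes had an entry. Capitals mark bases that differ from the other copy of the pair or have no partner in the alignment. The Cyp2a4 window is chr7:26306942-26307241 and the Cyp2a5 window chr7:26835089-26835388, both on the plus strand, with 5 substitutions over 299 aligned bases.
Cyp2a5: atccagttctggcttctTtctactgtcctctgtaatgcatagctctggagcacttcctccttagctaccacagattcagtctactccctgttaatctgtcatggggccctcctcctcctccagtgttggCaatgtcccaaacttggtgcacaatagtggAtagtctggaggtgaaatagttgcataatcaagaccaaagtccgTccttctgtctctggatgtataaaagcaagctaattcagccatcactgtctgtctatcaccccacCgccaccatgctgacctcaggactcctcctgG
Cyp2a4: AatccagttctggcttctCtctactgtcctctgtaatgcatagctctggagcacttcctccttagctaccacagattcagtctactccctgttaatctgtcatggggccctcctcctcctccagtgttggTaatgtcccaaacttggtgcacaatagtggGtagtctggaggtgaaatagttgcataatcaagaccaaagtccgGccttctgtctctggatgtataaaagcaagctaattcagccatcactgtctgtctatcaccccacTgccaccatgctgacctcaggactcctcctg
The Cyp2a12 window is chr7:27028840-27029139 on the plus strand and the Cyp2a22 window chr7:26939337-26939636 on the minus strand, with 31 substitutions over 289 aligned bases.
Cyp2a12: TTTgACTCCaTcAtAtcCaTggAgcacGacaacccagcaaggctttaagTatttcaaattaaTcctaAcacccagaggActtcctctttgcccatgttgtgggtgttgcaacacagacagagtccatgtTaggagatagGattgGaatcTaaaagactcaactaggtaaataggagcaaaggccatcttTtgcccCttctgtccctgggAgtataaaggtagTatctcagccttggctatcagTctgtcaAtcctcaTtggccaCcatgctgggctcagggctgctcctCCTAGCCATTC
Cyp2a22: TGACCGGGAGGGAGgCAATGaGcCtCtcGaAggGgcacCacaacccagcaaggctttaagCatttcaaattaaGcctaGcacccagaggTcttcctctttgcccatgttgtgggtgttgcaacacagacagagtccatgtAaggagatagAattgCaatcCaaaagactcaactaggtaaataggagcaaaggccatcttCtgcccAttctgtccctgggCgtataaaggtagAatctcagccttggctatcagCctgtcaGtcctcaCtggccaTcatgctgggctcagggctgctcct
Motifs were searched on both strands as exact letters, and the share of 32817 RefSeq promoter windows that hold each is given beside it. A match is a description of letters. TATAAA, the TATA box, was present once in each window, first base 28 bases before the start in Cyp2a4 and Cyp2a22, 29 in Cyp2a5 and 39 in Cyp2a12, and 13.6% of windows hold it. TTGCATAA, a C/EBP and PAR bZIP type motif, was found in the Cyp2a4 and Cyp2a5 windows, 70 and 71 bases before the start, and in neither of the other windows (0.744% of windows). CAAAGTCC, an HNF4 type motif, was likewise in Cyp2a4 and Cyp2a5 alone of the 4, 55 and 56 bases before the start (1.42% of windows). Both of these motifs were added after the sequences had been read. None of the 5 substitutions between Cyp2a4 and Cyp2a5 fell within a motif match. AGGTCA, the nuclear receptor core site, was found on the minus strand of Cyp2a4 and Cyp2a5 within their first coding bases (16.3% of windows). CCAAT was found on the minus strand of Cyp2a12 at 2 places, both of which hold a base that differs in Cyp2a22 (37.4% of windows). No match in the 4 windows was found for the E-box CACGTG (7.15% of windows), for the D-box parts TTATGTA (2.63%) and also TTACGTA (0.475%), for the AhR core GCGTG (32.4%), for the TATA variant TATATA (5.67%) or for the antioxidant element TGACNNNGC (12.4%).

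The files hold FPKM (reads scaled by merged exon length and by the library total), from which whole reads were recovered. Library totals were 13082210 to 15938284 reads in PS-MP and 14520402 to 16948343 reads in water. In the fit over all genes, limma-trend on log2(FPKM + 0.5) tested 13299 genes, and 65 had a Benjamini-Hochberg adjusted p under 0.05, 32 with higher and 33 with lower values in PS-MP. Such genes are referred to as called. All 7 hepatocyte markers were tested, and their summed level was 80716 to 98232 CPM (reads scaled to a common total) in PS-MP and 94449 to 102680 CPM in water. PS-MP replicate 3 stood apart through brain transcripts, with 270.6 CPM summed over 8 forebrain neuron markers, against 46.6 and 60.5 CPM in the other PS-MP libraries and 31.0 to 37.3 CPM in water. None of those 8 markers was at 0 in all libraries, 5 were tested and 0 called. Of these markers, Snap25 had 61, 19 and 860 reads in PS-MP replicates 1, 2 and 3, against 1, 2 and 0 reads in water. Camk2a had 58, 19 and 670 reads in PS-MP, against 1, 3 and 0 in water. Brain transcripts were thus also present in PS-MP replicates 1 and 2. Values without PS-MP replicate 3 stand beside the members and the called partner genes, but they keep replicates 1 and 2. The part of brain transcripts in the results was not tested.

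Cyp2a5 had 269, 270.1 and 295 FPKM in PS-MP replicates 1, 2 and 3 (7293, 8925 and 9121 reads), against 91.5, 113 and 85.3 FPKM in water replicates 1, 2 and 3 (2881, 3978 and 2567 reads). Every PS-MP library lay above every water library. Cyp2a5 averaged 278 ± 14.7 FPKM in PS-MP and 96.7 ± 14.7 FPKM in water (SD, n = 3 each). The log2 fold change was 1.53 (SE 0.11), a 2.88-fold higher level on the scale of FPKM + 0.5. It ranked 13 by log2 fold change among the 13299 tested genes, and its value was 1.49 without PS-MP replicate 3. In bulk liver, more cells of a type and more RNA per cell cannot be told apart.

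Cyp2a4, the steroid hydroxylase, was far scarcer. It had 1.28, 1.55 and 1.62 FPKM in the PS-MP libraries (29, 43 and 42 reads), against 0.530, 0.611 and 0.317 FPKM in the water libraries (14, 18 and 8 reads). The groups did not overlap, and 5 of the 6 libraries reached the low-value limit of 0.66 CPM. The means were 1.48 ± 0.18 FPKM in PS-MP and 0.486 ± 0.152 FPKM in water (SD, n = 3 each). The log2 fold change was 1.02 (SE 0.14). Since 0.5 was added to such low values, this understates the difference, and on the recovered reads limma-voom gave 1.61. Without PS-MP replicate 3 the log2 fold change was 0.96. Counting error was wide at this depth. The exact Poisson interval (95%) ran from 0.854 to 1.83 FPKM in PS-MP replicate 1 and from 0.362 to 0.966 FPKM in water replicate 2, so these intervals met.

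**Figure D1:**
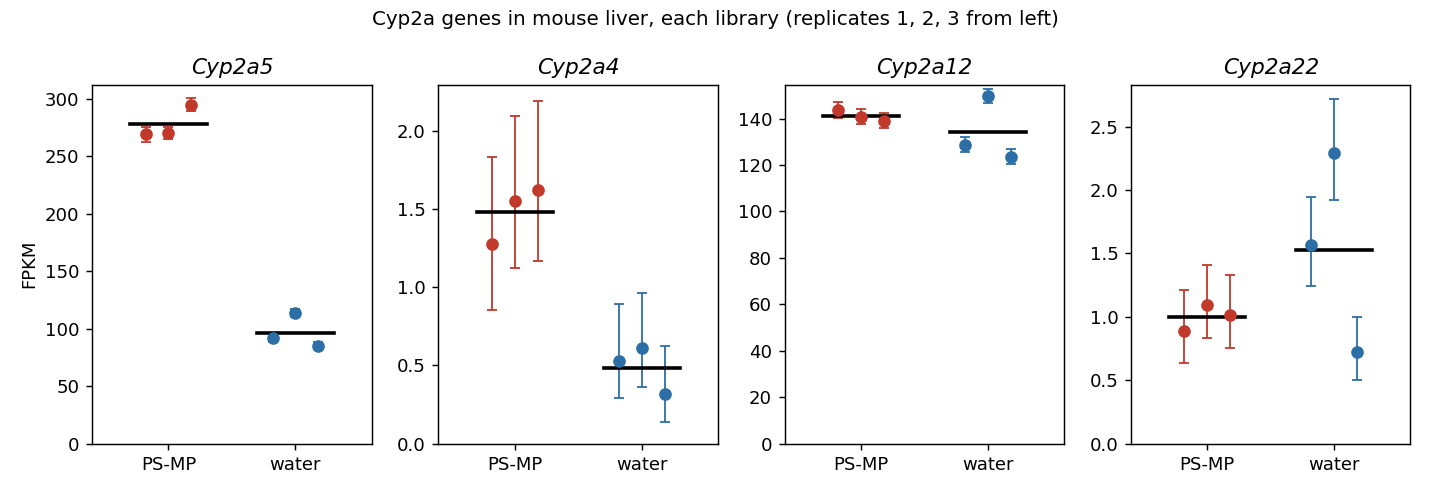
FPKM of each Cyp2a gene in each library, PS-MP (red) left of water (blue), with exact 95% Poisson intervals of the read counts and the group mean as a black line; each panel has its own axis from 0. Cyp2a5 sat at 269 to 295 FPKM in PS-MP and 85.3 to 113 FPKM in water, and Cyp2a12 overlapped between the groups.

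The 2 close copies kept nearly the same proportion of reads. Cyp2a4 made up 0.396%, 0.479% and 0.458% of the reads of Cyp2a4 plus Cyp2a5 in the PS-MP libraries, and 0.484%, 0.450% and 0.311% in the water libraries. Pooled over libraries, its share was 0.448% in PS-MP (114 of 25453 reads, 0.370% to 0.538%) and 0.423% in water (40 of 9466 reads, 0.302% to 0.575%). These are exact Clopper-Pearson 95% intervals for counting error only. The groups overlapped in this share, and no shift between the copies was detectable at this depth. Whether the Cyp2a4 reads are reads of Cyp2a5 placed on its copy was not tested. With the pair summed, the log2 fold change was 1.53.

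Cyp2a12, the testosterone 7-alpha-hydroxylase, had 144, 140.8 and 139 FPKM in the PS-MP libraries (6500, 7758 and 7175 reads), against 129, 149.7 and 124 FPKM in the water libraries (6763, 8773 and 6207 reads). The PS-MP libraries all fell inside the range of the water libraries. The means were 141 ± 2.33 FPKM in PS-MP and 134 ± 13.8 FPKM in water (SD, n = 3 each), with a log2 fold change of 0.08 (SE 0.08), or 0.09 without PS-MP replicate 3. The spread among water libraries was thus larger than the distance between the groups.

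Cyp2a22 had 0.888, 1.09 and 1.01 FPKM in PS-MP (40, 60 and 52 reads), against 1.57, 2.30 and 0.720 FPKM in water (82, 134 and 36 reads). The groups overlapped, because water replicate 3 was the lowest library of all and water replicate 2 the highest. The means were 0.997 ± 0.103 FPKM in PS-MP and 1.53 ± 0.788 FPKM in water (SD, n = 3 each), and the log2 fold change was -0.36 (SE 0.27). It was -0.69 without water replicate 3, -0.087 without water replicate 2 and -0.37 without PS-MP replicate 3. Cyp2a22 made up 0.612% to 0.767% of the reads of Cyp2a22 plus Cyp2a12 in PS-MP and 0.577% to 1.50% in water.

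**Figure D2:**
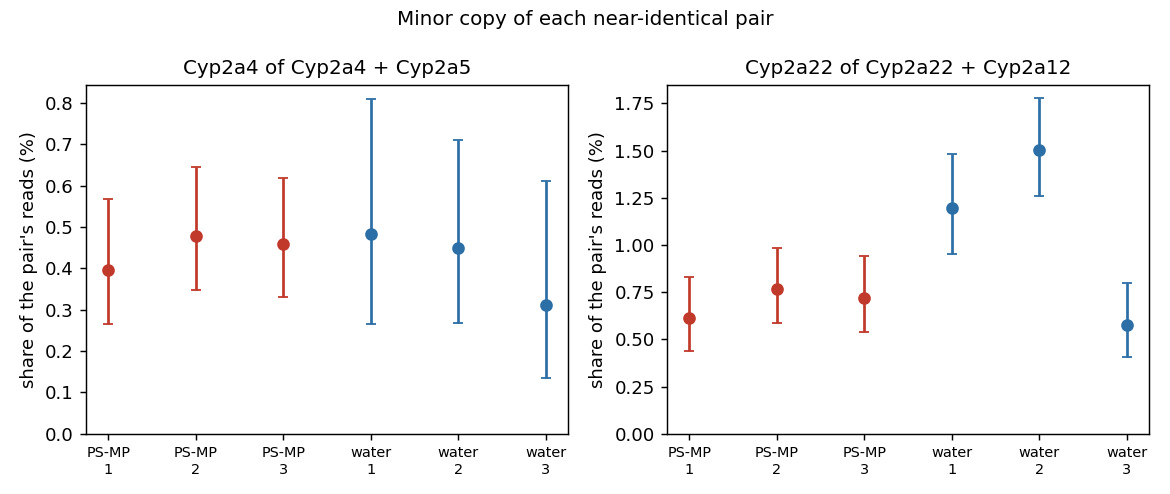
Share of reads held by the scarcer copy of each close pair, in percent of the pair's reads, in each PS-MP (red, left) and water (blue, right) library with exact Clopper-Pearson 95% intervals. The Cyp2a4 share stayed between 0.311% and 0.484% in all 6 libraries, and the Cyp2a22 share was most spread among water libraries, from 0.577% to 1.50%.

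All 4 members passed the limit on low values, and 2 of 4, Cyp2a5 and Cyp2a4, were called, both higher. Over all tested genes 0.489% were called in either direction, 0.241% were called higher and 0.248% lower. The groups did not overlap for 2 of 4 members, against 19.2% of all tested genes. The family was picked from this contrast, so nothing is read from these counts. Within the water group, all 4 genes were highest in replicate 2 and lowest in replicate 3. Deviations of Cyp2a5 and Cyp2a12 from their group means had a Pearson r of 0.89 over the 6 libraries. Over the values themselves r was 0.55. Within a library both genes are scaled by the same total.

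The order of levels depended on the length used. As deposited, Cyp2a5 was above Cyp2a12 in every PS-MP library and below it in every water library, and the ratio of their FPKM was 1.87, 1.92 and 2.12 in PS-MP and 0.710, 0.756 and 0.690 in water. Cyp2a5 made up 65.9% ± 1.44 of the summed FPKM of the 4 genes in PS-MP and 41.4% ± 1.02 in water (SD, n = 3 each). The merged exon length of Cyp2a12 is 3457 bases, against 1681 bases in its coding transcript, while Cyp2a5 has 2073 and 2013 bases. Per length of the coding transcript, a choice made after the data were seen, Cyp2a12 averaged 290.4 ± 4.79 FPKM in PS-MP and 276 ± 28.4 FPKM in water, and Cyp2a5 averaged 286 ± 15.1 FPKM in PS-MP and 99.6 ± 15.1 FPKM in water. On that scale the ranges of Cyp2a5 and Cyp2a12 overlapped in PS-MP, and Cyp2a12 was higher in every water library. Cyp2a22 and Cyp2a4 lay far lower on both scales. In water Cyp2a22 was above Cyp2a4 in FPKM with ranges that did not overlap, and in PS-MP Cyp2a4 was above Cyp2a22 as deposited, whereas per coding transcript Cyp2a22, at 1.91 ± 0.20 FPKM, was above Cyp2a4.

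The family was then placed among all cytochrome P450 genes, of which 101 are annotated apart from pseudogenes and 63 were tested. Cyp2a5 and Cyp2a4 had the highest and the next highest log2 fold change of the 63. With the members apart, 0 of 59 were called by limma-trend, against 0.489% of all tested genes. Of these 59, 9 had an unadjusted p under 0.05 (1737 of all 13299 tested genes had one). Their median log2 fold change was -0.0016, against 0.01 over all genes tested. With limma-voom, 2 of the 59 were called, Cyp2b10 and Cyp8b1. Cyp8b1, the sterol 12-alpha-hydroxylase of bile acid synthesis, had 258 ± 48.3 FPKM in PS-MP and 432 ± 28.9 FPKM in water (SD, n = 3 each; log2 fold change -0.76, limma-trend adjusted p = 0.0873). Cyp3a25, a testosterone-oxidising P450, had 822 ± 116 FPKM in PS-MP and 585 ± 86.9 FPKM in water (limma-trend adjusted p = 0.195). Next to these 2 members by log2 fold change came Cyp3a59, at 0.69 with overlapping groups (limma-trend adjusted p = 0.374). It was named after its values were seen.

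By mean FPKM the 10 highest P450 genes were Cyp2e1, Cyp4a14, Cyp4a10, Cyp3a11, Cyp3a25, Cyp2d9, Cyp2d10, Cyp8b1, Cyp2f2 and Cyp2d26. Cyp2e1, which oxidises ethanol and other small molecules, led with 4433 ± 366 FPKM in PS-MP and 4503 ± 196 FPKM in water (SD, n = 3 each). Cyp2a5 ranked 10, 11 and 11 among P450 genes in the PS-MP libraries, and 25, 21 and 26 in the water libraries. Cyp2a12 ranked 18 or 19 in every library. Cyp2a5 held 1.67% ± 0.21 of the summed P450 FPKM in PS-MP and 0.550% ± 0.083 in water (SD, n = 3 each).

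**Figure D3:**
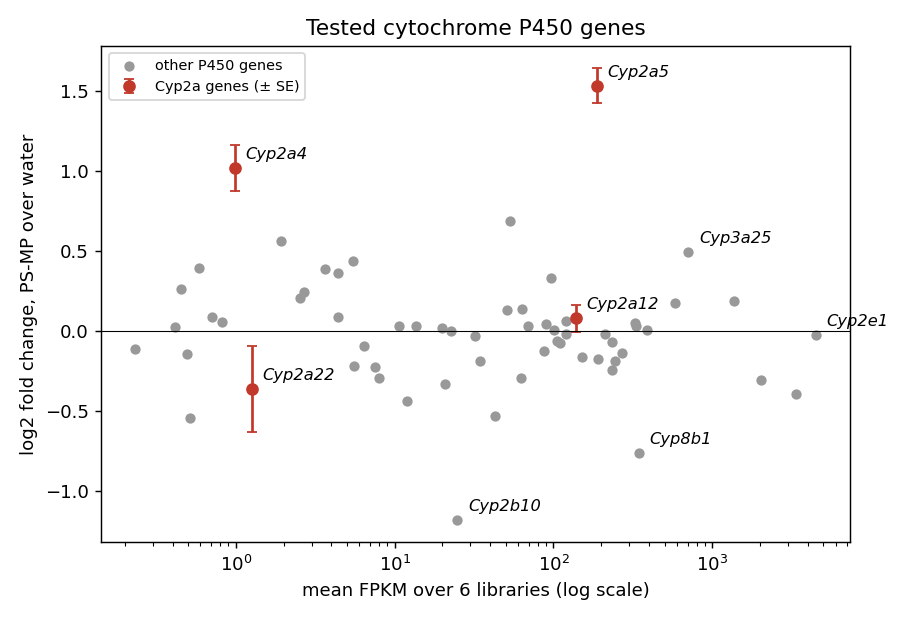
Mean FPKM over the 6 libraries (log axis) against the log2 fold change of PS-MP over water for the 63 tested P450 genes, with Cyp2a genes in red and their standard errors. Cyp2a5 at 1.53 and Cyp2a4 at 1.02 lie above all other P450 genes, and Cyp2b10 at -1.18 lies lowest.

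Neighbouring genes were examined because the family shares its cluster with other Cyp2 genes. Of 72 annotated genes within 500 kb of a member, 22 were tested. Of the 18 that were no members, 0 were called by limma-trend, 1 had an unadjusted p under 0.05, and 1, Cyp2b10, was called by limma-voom. Over all 13299 tested genes, limma-trend called 0.489%, and 1737 had an unadjusted p under 0.05. Of the 9 other Cyp2 genes of the cluster, 4 were tested, 0 were called, and their median log2 fold change was -0.26. Cyp2b10, a phenobarbital-inducible P450, had 18.9, 15.8 and 10.6 FPKM in PS-MP, against 25.3, 44.1 and 34.5 FPKM in water, with no overlap (log2 fold change -1.18, limma-trend adjusted p = 0.107). Cyp2b9, a P450 known for female-biased levels, had 0.34 ± 0.38 FPKM in PS-MP and 0.685 ± 0.341 FPKM in water, with overlap (limma-trend adjusted p = 0.531). Cyp2g1, an olfactory P450 just before Cyp2a5, had 0.524 ± 0.072 FPKM in PS-MP and 0.383 ± 0.307 FPKM in water. Cyp2f2, next beyond Cyp2a12 in the tested set and abundant in liver, had 336 ± 24.8 FPKM in PS-MP and 330 ± 37.7 FPKM in water. Cyp2g1 and Cyp2f2 were named after their values were seen.

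**Figure D4:**
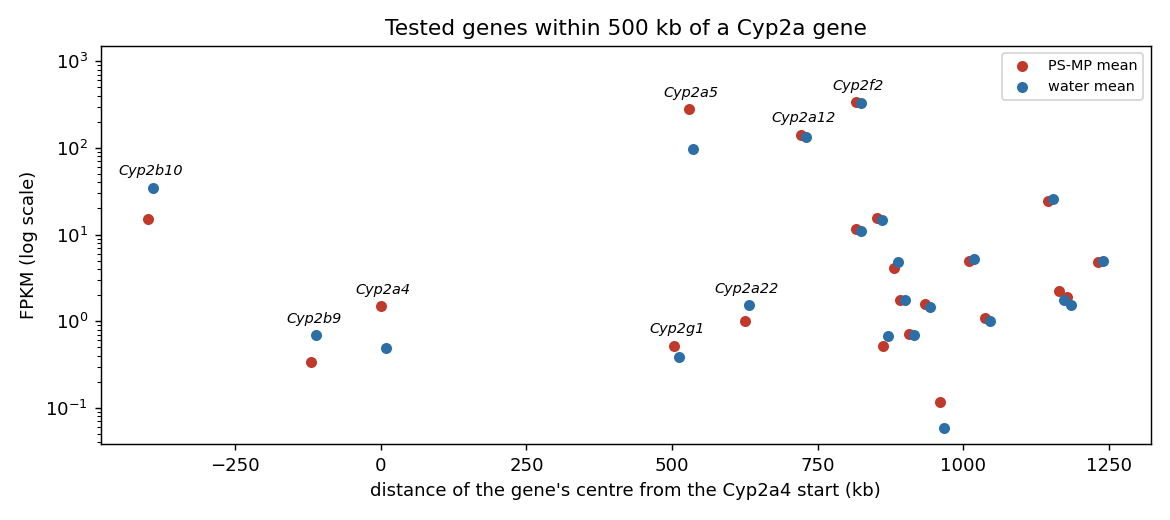
Mean FPKM (log axis) in PS-MP (red) and water (blue) for the 22 tested genes within 500 kb of a Cyp2a gene, by distance of the gene's centre from the Cyp2a4 start in kb; red and blue points are offset sideways by a small fixed amount. The red point is clearly above the blue one at Cyp2a5 (278 FPKM in PS-MP, 96.7 FPKM in water) and Cyp2a4, and below it at Cyp2b10.

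The partners that a P450 needs were next compared by limma-trend, which called 0.489% of all tested genes. Their lists, and the lists that follow, were chosen with earlier results of these data known. Of 15 genes of haem supply and bilirubin handling, 1 was called higher and 0 lower, and the list's median log2 fold change was 0.02. The called gene was Alas1, the rate-limiting enzyme of haem synthesis in liver. Alas1 had 93.3, 127 and 123 FPKM in PS-MP, against 36.4, 29.8 and 35.6 FPKM in water. The groups were far apart (log2 fold change 1.73, SE 0.13, adjusted p = 0.00831), and the adjusted p was 0.0915 without water replicate 3 and at most 0.0436 without any other single library (0.0245 without PS-MP replicate 3, at a log2 fold change of 1.67). Of 9 electron donors of microsomal P450, 1 was called higher and 0 lower, with a median of 0.09. The called gene was Por, cytochrome P450 reductase. Por had 180.0, 184 and 174 FPKM in PS-MP, against 107, 125 and 124 FPKM in water, without overlap (log2 fold change 0.60, SE 0.08, adjusted p = 0.0358). With any 1 library left out Por was no longer called, with log2 fold changes of 0.53 to 0.64 and adjusted p of 0.0551 to 0.149 (0.0576 without PS-MP replicate 3, at 0.62).

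Regulators described for Cyp2a5 were mixed. Of 25 tested, 2 were called higher (Dbp and Tef), 1 was called lower (Arntl), and the median log2 fold change was 0.01. The share called was 12%, against 0.489% of all tested genes. Because the list was chosen with earlier results known, nothing is read from this share. By limma-trend 9 of the 25 had an unadjusted p under 0.05, against 1737 of all 13299 tested genes. The groups did not overlap for 8 of the 25, 6 higher and 2 lower in PS-MP, against 19.2% of all tested genes. Dbp and Tef are PAR bZIP transcription factors that are known to drive the daily rhythm of Cyp2a4 and Cyp2a5 in mouse liver. Dbp had 9.60, 11.1 and 17.1 FPKM in PS-MP, against 1.06, 3.29 and 1.63 FPKM in water (log2 fold change 2.45, SE 0.33, limma-trend adjusted p = 0.0366). Tef had 20.9, 22.7 and 29.7 FPKM in PS-MP, against 9.80, 13.2 and 11.6 FPKM in water (log2 fold change 1.04, SE 0.15, limma-trend adjusted p = 0.0386). For both genes PS-MP replicate 3 was the highest library, as it was for Cyp2a5. Hlf, the remaining PAR bZIP factor, was picked with its values in view and had 12.6 ± 1.64 FPKM in PS-MP and 9.51 ± 0.34 FPKM in water (log2 fold change 0.38, limma-trend adjusted p = 0.164). Arntl, which encodes the core clock protein BMAL1, had 1.28, 0.692 and 1.24 FPKM in PS-MP, against 3.20, 2.78 and 3.41 FPKM in water (log2 fold change -1.23, limma-trend adjusted p = 0.0386).

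Among 15 genes of the PAR bZIP, PER and BMAL1 clock list, 4 were called higher, 1 lower, and the median log2 fold change was 0.43, against 0.01 over all genes. The share called was 33.3%, against 0.489% of all tested genes. Dbp, Tef and Arntl are on this list and on that of the regulators. This list too was chosen with earlier results known, so nothing is read from its share. By limma-trend 12 of the 15 had an unadjusted p under 0.05, against 1737 of all 13299 tested genes. The other two called higher were Per3, a repressor of the clock, at 2.93 ± 0.791 FPKM in PS-MP and 0.579 ± 0.114 FPKM in water (limma-trend adjusted p = 0.0243), and Nr1d2, a nuclear receptor that represses Arntl, at 23.1 ± 0.825 FPKM in PS-MP and 13.4 ± 1.33 FPKM in water (limma-trend adjusted p = 0.0243). These calls depended on single libraries: with 1 library left out, 0 to 4 clock genes were called. Dbp remained called only without water replicate 2, and Tef and Arntl in none of those fits. Per3 remained called without PS-MP replicate 1 (adjusted p = 0.0220), PS-MP replicate 3 (adjusted p = 0.0278) or water replicate 2 (adjusted p = 0.0397) by limma-trend, and Nr1d2 without PS-MP replicate 1 or water replicate 2. Without PS-MP replicate 3 the limma-trend adjusted p of Dbp was 0.0617, at a log2 fold change of 2.22. In the same fit Tef was at 0.90 and Arntl at -1.31, each with an adjusted p of 0.0576, and Nr1d2 at 0.73 with an adjusted p of 0.0553. Robust empirical Bayes in limma also ended the call of Dbp (adjusted p = 0.0788), and kept Tef and Arntl. The hour of collection is not given in the labels, so a difference in collection hour between the groups was not tested. Cyp2a5 and Dbp had a Pearson r of 0.97 over the 6 libraries, and 0.83 between their deviations from group means. For Alas1 and Por these correlations with Cyp2a5 were 0.96 and 0.97 over the libraries, and -0.35 and 0.24 between deviations. The value for Dbp was not particular to it. Between deviations, Cyp2a5 had an r of 0.89 with Cyp2a12, 0.85 with Cyp2a22, 0.80 with Cyp2a4 and 0.65 with Cyp2f2. Both genes of a correlation share the total and the group of each library, so these correlations are descriptions.

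**Figure D5:**
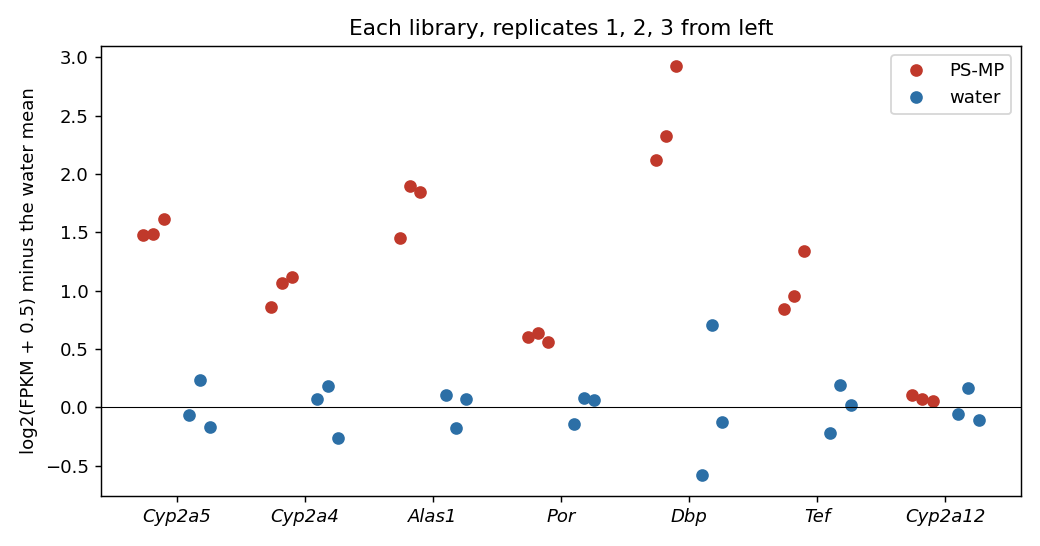
Level of Cyp2a5, Cyp2a4, Alas1, Por, Dbp, Tef and Cyp2a12 in each library, as log2(FPKM + 0.5) minus the mean of the water libraries, PS-MP (red) left of water (blue). All but Cyp2a12 show 3 PS-MP points above 3 water points, and Dbp, with a log2 fold change of 2.45, is the most spread.

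Further receptors and factors known to act on Cyp2a5 were named after their values were seen. For 6 of these 8 genes the groups overlapped, and for Nr3c1 and Ppargc1a they did not. Nr1i3, the constitutive androstane receptor CAR, had 13.1 ± 1.24 FPKM in PS-MP and 13.3 ± 0.22 FPKM in water (SD, n = 3 each). Nr1i2, the pregnane X receptor PXR, had 32.8 ± 1.06 FPKM in PS-MP and 30.8 ± 2.23 FPKM in water. Hnf4a, a liver nuclear receptor, had 188 ± 11.1 FPKM in PS-MP and 185 ± 16.9 FPKM in water. Nfe2l2, which encodes the oxidative stress factor NRF2, had 14.1 ± 0.79 FPKM in PS-MP and 14.3 ± 1.81 FPKM in water, and Ahr, the aryl hydrocarbon receptor, had 8.79 ± 2.16 FPKM in PS-MP and 10.6 ± 0.59 FPKM in water. Hnrnpa1, an RNA-binding protein known to stabilise Cyp2a5 transcripts, had 30.6 ± 1.53 FPKM in PS-MP and 30.3 ± 2.16 FPKM in water. Ppargc1a, a coactivator induced by fasting, had 4.46, 7.08 and 3.77 FPKM in PS-MP, against 2.14, 2.89 and 2.97 FPKM in water. Its groups did not overlap, and it was not called (log2 fold change 0.79, limma-trend adjusted p = 0.184). Nr3c1, the glucocorticoid receptor, had 13.3, 12.3 and 14.0 FPKM in PS-MP, against 10.5, 9.42 and 10.2 FPKM in water. It had the smallest p of these 8 genes and was not called (log2 fold change 0.38, limma-trend adjusted p = 0.108).

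The targets of these receptors were counted in the limma-trend fit. Of 30 tested targets of CAR and PXR, 2 were called higher, Alas1 and Por, which other lists also hold, and 0 lower. The share called was 6.67%, against 0.489% of all tested genes, and the median log2 fold change was 0.05. Nothing is read from this share, as the list was chosen with earlier results known. Of these 30 targets, 9 had an unadjusted p under 0.05, against 1737 of all 13299 tested genes. Of 5 tested targets of AhR, 0 were called and 1 had an unadjusted p under 0.05, and of 16 tested targets of NRF2, 0 were called and 2 had an unadjusted p under 0.05. Limma-voom also called 0 genes of both lists. Among targets of CAR and PXR it called Cyp2b10 in addition, which was lower in PS-MP (limma-voom log2 fold change -1.21). Nqo1, a quinone reductase on both lists, had 5.85 ± 1.02 FPKM in PS-MP and 4.56 ± 0.03 FPKM in water (limma-trend adjusted p = 0.320). Cyp1a2, an AhR target that oxidises caffeine, had 143 ± 16.2 FPKM in PS-MP and 159 ± 13.0 FPKM in water (limma-trend adjusted p = 0.534). Srxn1, which encodes sulfiredoxin, had 17.9 ± 2.14 FPKM in PS-MP and 23.9 ± 2.75 FPKM in water (limma-trend adjusted p = 0.187).

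Since Cyp2a4 is known as a female-biased gene, lists of sex-biased liver genes were counted, and limma-trend and limma-voom each called 0 of them. Over all 13299 tested genes, limma-trend called 0.489%, and 1737 had an unadjusted p under 0.05. Of 10 tested female-biased genes, 0 were called and 0 had an unadjusted p under 0.05, and their median log2 fold change was 0.20. The smallest p belonged to Acot3, an acyl-CoA thioesterase, at 3.09 ± 2.46 FPKM in PS-MP and 5.20 ± 0.91 FPKM in water (limma-trend adjusted p = 0.450), and to Cyp17a1, a steroid 17-alpha-hydroxylase (limma-trend adjusted p = 0.522). Of 21 tested male-biased genes, 0 were called and 2 had an unadjusted p under 0.05. These were Elovl3, a fatty acid elongase, at 73.8 ± 12.9 FPKM in PS-MP and 131 ± 31.8 FPKM in water (limma-trend adjusted p = 0.131), and Nudt7, a peroxisomal hydrolase, at 29.0 ± 7.21 FPKM in PS-MP and 19.9 ± 1.67 FPKM in water (limma-trend adjusted p = 0.274).

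Cyp2a5 is known as a gene of hepatocytes around the central vein, and neither zone's list held a gene called by limma-trend, while limma-voom called Cyp8b1 among the pericentral genes. Of 21 tested pericentral genes, 4 had an unadjusted p under 0.05, and the median log2 fold change was -0.05. Besides Cyp8b1, the smallest p was that of Lgr5, a Wnt-dependent receptor, at 0.863 ± 0.236 FPKM in PS-MP and 1.43 ± 0.07 FPKM in water (limma-trend adjusted p = 0.186). Of 14 tested periportal genes, 8 had an unadjusted p under 0.05 and 12 had a positive log2 fold change, with a median of 0.22. Over all 13299 tested genes, limma-trend called 0.489%, 1737 had an unadjusted p under 0.05 and 7136 had a positive log2 fold change. The 2 periportal genes with the smallest p were Sds, serine dehydratase, and Hal, histidine ammonia-lyase. Sds had 139 ± 27.1 FPKM in PS-MP and 89.0 ± 22.8 FPKM in water (limma-trend adjusted p = 0.213). Hal had 112 ± 4.38 FPKM in PS-MP and 96.3 ± 5.42 FPKM in water (limma-trend adjusted p = 0.237). Of 13 tested partner enzymes of nicotine and coumarin metabolism, limma-trend and limma-voom called 0, and 1 had an unadjusted p under 0.05. That was Fmo5, a flavin monooxygenase, at 182 ± 20.3 FPKM in PS-MP and 141 ± 23.9 FPKM in water (limma-trend adjusted p = 0.291).

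Other tissues known to express Cyp2a genes were checked through their markers, summed in CPM. The 6 kidney tubule markers reached at most 0.251 CPM in PS-MP and 0.0689 CPM in water, with Umod, Slc12a1, Kap and Aqp2 at 0 in all libraries. The 5 lung and airway markers summed to 2.37 to 3.89 CPM in PS-MP and 1.45 to 2.50 CPM in water, with Sftpb and Scgb3a2 at 0. The 6 olfactory mucosa markers summed to 4.43 to 7.40 CPM in PS-MP and 2.96 to 3.62 CPM in water, with Bpifb9b and Obp1a at 0. Of the others, Gnal was higher in every PS-MP library (26, 29 and 59 reads, against 12, 15 and 10 in water), while Obp2a and Adcy3 overlapped. Omp had 0, 0 and 1 reads in PS-MP and 0, 1 and 4 reads in water. Brain expresses Gnal and Adcy3, and the part of such transcripts in the Cyp2a levels was not tested. In none of these 3 lists was a marker called. Of all 19 marker lists, 3 were higher in every PS-MP library than in any water library (forebrain neuron, kidney tubule and olfactory mucosa). Another 3 were lower in every PS-MP library (brown adipocyte, which holds the liver gene Elovl3, intestinal epithelium and B cell). Among single genes, the groups did not overlap for 19.2% of those tested. The kidney tubule sums rest on a few reads of Slc22a12 (1, 4 and 1 in PS-MP, 0, 1 and 0 in water) and of Slc34a1 (0, 0 and 1 in both groups). The intestinal sums rest on Fabp2 and Lgals4 (5952 and 2727 reads over all libraries), while Vil1, Muc2 and Alpi had 14, 18 and 1. Of the brown adipocyte markers, Ucp1 had 0, 0 and 68 reads in PS-MP and 139, 0 and 15 in water. Cidea and Cox8b overlapped between the groups as well.

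For each member, the genes most like it were ranked by Pearson r of log2(FPKM + 0.5) over the 6 libraries among 9313 genes, as a description. Closest to Cyp2a5 were Sh3bp2, Rreb1, Znfx1 and D5Ertd579e, at 0.990, 0.990, 0.988 and 0.986. Sh3bp2, an adaptor protein, had 5.0, 5.05 and 5.29 FPKM in PS-MP, against 2.84, 3.52 and 2.63 FPKM in water, and its deviations from group means also had an r of 0.99 with those of Cyp2a5. Closest to Cyp2a4 were Fam102a, Zbtb18, Osbpl11 and Baz2a, at 0.990 to 0.997. Closest to Cyp2a12 were AC170998.1, Gramd1a, Ndufb10 and Srebf2, at 0.982 to 0.998, and closest to Cyp2a22 were Ctsd, Coa3, Atp6ap1 and Ergic1, at 0.983 to 0.996. AC170998.1 had only 6 to 21 reads a library, where counting error is wide. No gene appeared among the 4 closest to more than 1 member.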

How the data were processed

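The authors deposited 1 FPKM value per gene and library. Per the submitters' processing notes, reads were handled with CASAVA, FastQC, MultiQC, Trimmomatic 0.38, HISAT2 2.1.0 and featureCounts 1.6.0, and DESeq2 1.22.1 is named. The notes name build GRCh38, whereas all 55536 identifiers are those of mouse GENCODE M21. Strand use and read length are not given in the sources used here. FPKM times merged exon length, divided by the value of 1 read, was whole within 0.001 reads for 100% of values, which gave reads and CPM. Genes that reached 0.66 CPM in 3 or more libraries and 15 reads over all 6 were tested with limma-trend (limma 3.58.1, R 4.3.3) on log2(FPKM + 0.5), with group as the only term and Benjamini-Hochberg adjustment over all 13299 genes at 0.05. The fit was tested on simulated data. Intervals cover counting error only. Motifs and alignments used Biopython 1.88 in Python 3.11.15.

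Members and lists were chosen with earlier results of these data known. Named were all members, called genes of a list (4 with the smallest p if over 5, 2 with the smallest p if none), Alas1, Por, Dbp, the 10 highest P450 genes and the 4 genes closest to each member. For any other gene the text states that it was picked with its values in view. Alternatives covered the pseudocount, filters, scalings, limma-voom, robust variances, a replicate block, left-out libraries and summed members.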

Additional observations from a re-analysis of the deposited data

How the results depend on the processing

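Cyp2a5 kept its direction in all alternatives, between 1.25 and 1.65 on the log2 scale, and the lower end came from leaving out the 3 libraries with Ucp1 reads, an adipose transcript (PS-MP replicate 3, water replicates 1 and 3). In that fit, with 2 and 1 libraries a group so that the lone water library was assumed to vary like the others, Cyp2a4 was at 0.78, Cyp2a12 at -0.074 and Cyp2a22 at -0.91, 0 genes, members and clock genes and 0 regulators of Cyp2a5 were called, and 1037 genes had an unadjusted p under 0.05. Cyp2a4 moved with the pseudocount, to 1.46 with 0.1 and 0.74 with 1, and to 1.61 with limma-voom. Cyp2a4 summed with Cyp2a5 gave 1.53, and all members summed gave 0.68 against the single values of Cyp2a12 and Cyp2a22.

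The number of genes called by limma-trend was 65. It was 0 with no filter on low values, where 2064 genes had an unadjusted p under 0.05 and 0 members, 0 regulators and 0 clock genes were called. Limma-voom called 131 genes (65 higher, 66 lower), 1 member, 8 clock genes, 2 other P450 genes and 1 other gene within 500 kb. With 1 library left out, 0 to 36 genes were called, 0 to 1 members, 0 to 1 regulators and 0 to 4 clock genes, and the log2 fold changes were 1.44 to 1.65 for Cyp2a5, 0.89 to 1.11 for Cyp2a4, 0.02 to 0.16 for Cyp2a12 and -0.69 to -0.09 for Cyp2a22. The counts of genes called were 36, 2 and 13 without PS-MP replicates 1, 2 and 3, and 3, 31 and 0 without water replicates 1, 2 and 3. The causes of these shifts were not tested. Counts of members called are descriptions with no test, since the family was picked from this contrast.

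The groups share replicate numbers, and deviations of same-numbered libraries had correlations of -0.04, 0.05 and -0.01. Libraries of unlike number ranged from -0.05 to 0.07. No pairing was detectable in these values, and whether the numbers stand for a batch was not tested. With the replicate block 23 genes, 1 member, 1 regulator and 3 clock genes were called. The member that lost its call was Cyp2a4, which is likewise a description with no test. In this balanced design a block leaves the log2 fold changes as they are. Per length of the coding transcript Cyp2a12 and Cyp2a22 moved up, to 290.4 and 1.91 FPKM in PS-MP and 276 and 2.93 FPKM in water. Cyp2a4 rests on 8 to 43 reads a library.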
